A study of Drosophila melanogaster with 18 samples.

Results

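Mediator is a large complex that carries signals from DNA-bound activators to RNA polymerase II (Pol II), and the mRNAs of its subunits were measured in *Drosophila* S2 cells after 30 min of heat shock (HS) and in non-HS (NHS) cells. Its genes were chosen by name: every FlyBase symbol made of MED and a number, plus *kto*, *skd*, *Cdk8* and *CycC*, which encode the kinase module. The rule matches 29 symbols of the Ensembl gene set (BDGP6 assembly), and 28 of these genes were among the 15602 genes of the RNA-seq table, 4 of the kinase module and 24 of the core. *MED9*, a middle subunit, was not analysed here. Of the 28 genes, 27 averaged 1 FPKM or more across the 4 libraries and were tested. Levels are in FPKM, fragment counts that the authors scaled for transcript length and library size. The remaining gene, *MED21*, another middle subunit, was listed at 0 FPKM in all 4 libraries, as were 3864 genes of the table, and is reported only as listed.

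The HS cells were S2 cells with no RNAi treatment that received an equal volume of serum-free medium at 48°C and were then kept at 37°C for 30 min. The NHS cells were the same line, also without RNAi treatment, collected before HS. Each condition had 2 biological replicates, and the libraries were directional and made from poly(A)+ RNA. S2 is 1 cell line, derived from embryos and similar to haemocytes, the blood cells of the fly. The other samples of the series were PRO-seq libraries and were not analysed here.

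The core of Mediator is divided into a head and a middle that contact Pol II, a tail that many activators bind, and the scaffold subunit MED14 that joins them. The kinase module is a separable part that can attach to the core and block its contact with Pol II, and it can also act as a coactivator. In fly cells HSF, the activator of the HS genes, recruits Mediator to HS loci. Published placements differ for MED19 and for MED27 to MED30, which were grouped here with the middle and the tail.

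A few properties of the 4 libraries bear on every value. Summed over all genes, the libraries held 923996.3 and 926922.0 FPKM in the HS replicates, against 831627.6 and 837851.7 in the NHS replicates. Depth in reads is not known from FPKM. Relative to NHS replicate 1, low values placed the HS replicates at 60.1% and 69.3% and NHS replicate 2 at 77.0%. These figures equal depth only if the FPKM were scaled by total reads, and that scaling is not known here. Genes listed at 0 numbered 5021 and 4862 in the HS replicates, against 5564 and 5682 in the NHS replicates. Across the 7815 genes tested, log2 levels had a Pearson's r of 0.966 for the HS pair of replicates, 0.963 for the NHS pair and 0.929 to 0.938 for libraries of different conditions. Of 10 haemocyte markers, 9 passed the minimum and *NimC1* was at or near 0. Of 11 markers of neurons, muscle, germ line and fat body, 9 had values, and 7 of these had a mean under 1 FPKM. The exceptions were *elav*, with 9.41 and 11.2 FPKM in HS cells and 8.98 and 7.97 FPKM in NHS cells, and *osk*. The latter had 2.11 and 2.2 FPKM in HS cells and 1.8 and 2.2 FPKM in NHS cells. The summed haemocyte markers were 380 and 451 FPKM in the HS libraries, against 364 and 465 FPKM in the NHS libraries. The other markers summed to 12.5 and 14.2 FPKM in HS cells and to 11.1 and 10.6 FPKM in NHS cells.

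After 30 min of HS, no Mediator mRNA passed the test for a change relative to NHS cells. With limma on the log2(FPKM + 1) scale and Benjamini-Hochberg adjustment over 7815 genes, 0 of the 27 subunit genes were called higher and 0 lower at an adjusted p under 0.05. The same test called 3.31% of all genes, 1.75% higher and 1.56% lower. At that share a list of 27 genes would hold few calls or none, so the count of 0 lies near it. Without adjustment, 2 subunit genes had a p under 0.05, *MED7* and *MED24*, both lower in HS cells and none higher, beside 10.5% of all genes in the lower and 7.42% in the higher direction. This count depended on the scaling between libraries: with libraries rescaled to equal FPKM totals it was 6 genes, all lower, beside 19.8% of all genes in that direction, and with scaling to the ribosomal protein mRNAs it was 13, all lower, beside 29.1%. It was 1 with the minimum raised to 5 FPKM, beside 11.5% of all genes in that direction. Leaving out a library leaves 1 in its condition, and no count is given for those fits. The adjusted p of the 27 genes ran from 0.12 to 0.95.

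With the scaling as deposited, most of the estimates were small. Every log2 fold change given for a gene is HS over NHS on the log2(FPKM + 1) scale, where it is smaller in size than the log2 of the FPKM ratio. It was within 0.25 of 0 for 25 of the 27 genes (92.6%), against 67.7% of all genes tested. With equal totals 17 genes were within 0.25 of 0, against 56.9% of all genes, and with ribosomal protein scaling 10 were, against 42.7%. Counted from the all-gene median of each setting, 25 were within 0.25 under the deposited scaling and under both of these. The shares of all genes were 68%, 67.7% and 67.2%. The number of subunit genes was 23 with quantile normalization, against 68.3% of all genes. It was 20 to 23 without any 1 library, against 60.3% to 62.8% of all genes. With the minimum raised to 5 FPKM, which all 27 genes passed, 25 were within 0.25 of 0, against 72.2% of all genes. As deposited, the median log2 fold change was -0.05 over the subunit genes, with a range of -0.49 to 0.18. It was -0.02 over all genes, whose middle 50% lay between -0.17 and 0.13. The 95% interval lay inside 1 log2 unit in either direction for 26 of the 27 genes (96.3%), against 82.7% of all genes, and it included 0 for 25. The exception was *MED10*, whose replicates lay far apart. The standard error had a median of 0.12 over the subunit genes and of 0.14 over all genes.

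**Figure D1:**
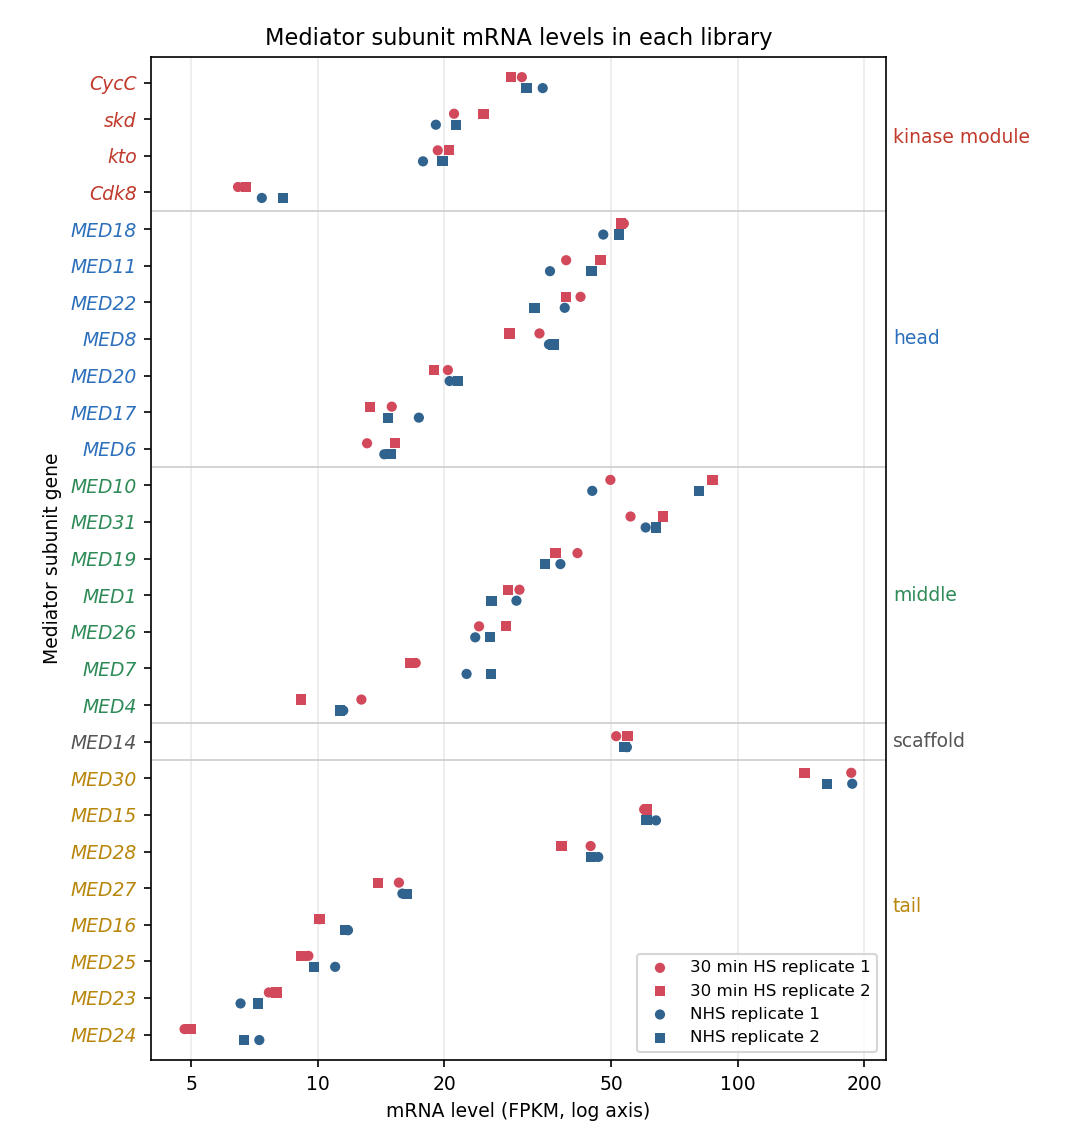
mRNA level in FPKM (log axis) of the 27 tested Mediator subunit genes in each library, grouped by module. Red points are the 30 min HS libraries and blue points, drawn just under them, the NHS libraries. Circles are replicate 1 and squares replicate 2. The levels run from 4.82 FPKM for *MED24* in HS replicate 1 to 187 FPKM for *MED30* in NHS replicate 1, and the red and blue points of most genes lie close together.

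Although the proteins form 1 complex, their mRNAs were far from equal. The mean level over the 4 libraries differed by 28.6-fold between the most abundant mRNA, *MED30*, and the least abundant, *MED24*, on a scale that already corrects for transcript length. A total of 4 genes were under 10 FPKM, 6 were between 10 and 20 FPKM, 13 were between 20 and 60 FPKM and 4 were at 60 FPKM or more. The median of all tested genes was 22.2 FPKM, and 14 of the 27 subunit genes lay above it. This order of levels was nearly the same in every library: Spearman's rho between libraries over the 27 genes was 0.974 to 0.991 for the 6 pairs of libraries. The genes share their libraries, so this rho describes the order and is no test.

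Most of the short transcripts were among the more abundant ones, *MED4* and *MED7* being exceptions. The 8 genes whose longest annotated transcript is under 1000 nt had a median of 39.9 FPKM, and the other 19 had a median of 20.4 FPKM. Spearman's rho between transcript length and level was -0.37 over the 27 genes and -0.05 over the 7475 tested genes with an annotation. Length bore little relation to the log2 fold change, with a rho of 0.06, and level somewhat more, with a rho of 0.39 over the same 27 genes. Genes of 1 complex measured in the same libraries are not replicates, and no p is given for these coefficients.

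The question for the kinase module was whether its mRNAs moved apart from those of the core. Its median log2 fold change differed from that of the core by 0.01, and its own members divided 2 and 2. The enzyme and its cyclin had lower mean values in HS cells, and the large regulatory subunits had higher ones, of which *kto* turned lower with equal totals and both turned lower with ribosomal protein scaling. None of the 4 passed the test. In *Drosophila* each of the 4 is encoded by a lone gene, whereas mammals have paralogs of several.

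*Cdk8* encodes the cyclin-dependent kinase itself, which phosphorylates the tail of Pol II and, in flies, the lipid regulator SREBP. Its mRNA stood at 6.46 and 6.76 FPKM in HS cells, against 7.36 and 8.25 FPKM in NHS cells. Both HS libraries lay below both NHS libraries. On average there were 6.61 ± 0.208 FPKM in HS cells and 7.8 ± 0.632 FPKM in NHS cells (SD, n = 2 each), a ratio of 0.847. On the log2(FPKM + 1) scale the estimate was -0.21, with a standard error (SE) of 0.12, a 95% interval of -0.54 to 0.12 and an adjusted p of 0.51 from limma. It was the third largest change in size among the subunit genes, and it kept its negative sign under all 14 other settings, where it ran from -0.42 to -0.14.

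*CycC* encodes cyclin C, the partner that Cdk8 needs for its activity. It was the most abundant of the module, at 30.6 and 28.8 FPKM in HS cells, against 34.3 and 31.4 FPKM in NHS cells. Here too the HS libraries lay below the NHS ones, by a smaller margin. It averaged 29.7 ± 1.24 FPKM in HS cells and 32.9 ± 2.01 FPKM in NHS cells (SD, n = 2 each). The difference, -0.14 on the log2 scale (standard error 0.1, 95% interval -0.42 to 0.13), had an adjusted p of 0.6 from limma. The *CycC* mRNA was 4.73 and 4.27 times the *Cdk8* mRNA in HS cells, against 4.66 and 3.81 times in NHS cells, so the ratio of the cyclin to its kinase overlapped between conditions.

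The product of *kto*, the fly MED12, activates the kinase in other species and acts with skd in Wingless signalling and in patterning of the fly. Its mRNA stood at 19.3 and 20.5 FPKM in HS cells, against 17.8 and 19.8 FPKM in NHS cells, and the conditions overlapped. Averages were 19.9 ± 0.875 FPKM in HS cells and 18.8 ± 1.4 FPKM in NHS cells (SD, n = 2 each). Its log2 fold change of 0.08 (95% interval -0.21 to 0.37, SE 0.11, adjusted p = 0.81 from limma) turned negative when libraries were rescaled to equal totals (-0.06) or to the ribosomal protein mRNAs (-0.15).

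The largest protein of the module comes from *skd*, the fly MED13, which tethers the module to the core. Its annotated transcript of 11414 nt is the longest of all subunit genes, followed by *kto* with 7740 nt, and *Cdk8* and *CycC* have 1529 and 1142 nt. The mRNA of *skd* stood at 21.1 and 24.8 FPKM in HS cells, against 19.1 and 21.3 FPKM in NHS cells. HS replicate 1 lay between the NHS libraries, so the conditions overlapped. This gave averages of 23 ± 2.65 FPKM in HS cells and 20.2 ± 1.52 FPKM in NHS cells (SD, n = 2 each). Its log2 fold change was 0.17 (95% interval -0.17 to 0.52, SE 0.13, adjusted p = 0.6 from limma) and became -0.06 with scaling to the ribosomal protein mRNAs.

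**Figure D2:**
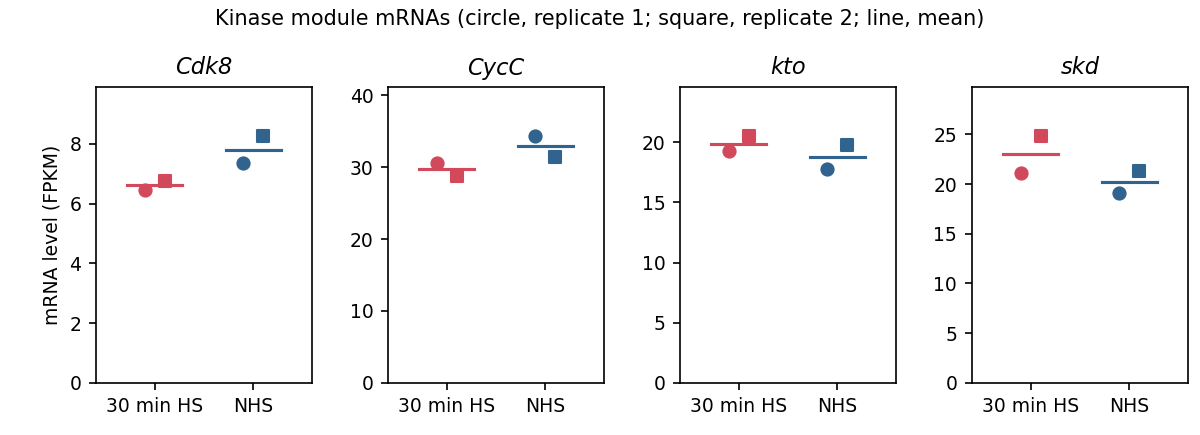
mRNA level in FPKM of the 4 kinase module genes, with 30 min HS at the left and NHS at the right of each panel. Circles are replicate 1, squares replicate 2 and lines the mean of 2 replicates, and each axis starts at 0. *Cdk8* and *CycC* lie lower in both HS libraries than in both NHS libraries, and *kto* and *skd* overlap between conditions.

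The share of the module in all Mediator mRNA overlapped between conditions. Its 4 genes summed to 77.4 and 80.9 FPKM in HS cells, against 78.6 and 80.8 FPKM in NHS cells. That was 8.47% and 8.88% of the summed FPKM of all subunit genes in HS cells, against 8.51% and 8.6% in NHS cells. The sums overlapped in the same way. The median log2 fold change was -0.03 for the 4 kinase module genes and -0.05 for the 23 tested core genes, a difference of 0.01 before rounding, with a replicate spread of 0.049 (SD). The median of the module was -0.17 with equal totals, -0.26 with ribosomal protein scaling and 0.03 with quantile normalization, and that of the core was -0.19, -0.28 and 0.00, with a difference of 0.02 in each before rounding. Without NHS replicate 2 the median of the module was 0.01 and the difference 0.07. The mean log2 level of the module lay below that of the core by 0.59 and 0.51 in the HS libraries and by 0.62 and 0.56 in the NHS libraries. These ranges overlapped. The difference carries no test, since the module and the core are lists of genes and not replicates.

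Within the module, the kinase pair and the regulatory pair stood further apart after HS. The mean log2 level of *Cdk8* and *CycC* minus that of *kto* and *skd* was -0.46 and -0.63 in the HS libraries, against -0.18 and -0.31 in the NHS libraries. The conditions did not overlap in this difference, which is free of the scaling between libraries except through the pseudocount. The pairing was chosen after the values were seen and follows the signs of the log2 fold changes of its members. A wider gap after HS is therefore built into the pairing. The difference is given as a description, and its lack of overlap is no test.

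The head, which touches Pol II most closely, had 7 tested genes with a median log2 fold change of -0.05 and a range of -0.2 to 0.18. Its genes summed to 217 and 215 FPKM in HS cells, against 210 and 217 FPKM in NHS cells. The most abundant, *MED18*, encodes part of a movable jaw of the head in yeast. It stood at 53.5 and 52.6 FPKM in HS cells, against 47.8 and 52.1 FPKM in NHS cells, with HS above NHS by a small margin. It averaged 53.1 ± 0.678 FPKM in HS cells and 49.9 ± 3.06 FPKM in NHS cells (SD, n = 2 each), and its log2 fold change of 0.09 (SE 0.1, adjusted p = 0.75 from limma) turned to -0.06 with equal totals and to -0.15 with ribosomal protein scaling. The least abundant, *MED6*, a conserved subunit at the joint of head and middle, stood at 13.1 and 15.3 FPKM in HS cells, against 14.4 and 14.9 FPKM in NHS cells. The NHS libraries lay between the HS ones. Averages of 14.2 ± 1.55 FPKM in HS cells and 14.6 ± 0.341 FPKM in NHS cells (SD, n = 2 each) differed by -0.05 on the log2 scale (SE 0.12, adjusted p = 0.91 from limma).

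*MED17* encodes the head subunit that HSF contacts in flies. Its mRNA stood at 15 and 13.3 FPKM in HS cells, against 17.4 and 14.7 FPKM in NHS cells, and the conditions overlapped, with a log2 fold change of -0.17 (adjusted p = 0.63 from limma). *MED22*, which pairs with *MED11* in a bundle of the yeast head, had the highest log2 fold change of all subunit genes, 0.18, from 42.2 and 38.9 FPKM in HS cells, against 38.7 and 32.8 FPKM in NHS cells. Its HS libraries lay above the NHS ones by a narrow margin, its adjusted p was 0.57 from limma, and the sign turned with ribosomal protein scaling (-0.05). *MED11* itself differed more between replicates than between conditions, with 39 and 47.1 FPKM in HS cells, against 35.7 and 44.8 FPKM in NHS cells. *MED8*, which holds the jaw to the rest of the head in yeast, stood at 33.7 and 28.6 FPKM in HS cells, against 35.5 and 36.4 FPKM in NHS cells. *MED20*, the partner of MED18 in the jaw, stood at 20.4 and 18.9 FPKM in HS cells, against 20.6 and 21.6 FPKM in NHS cells. For *MED8* and *MED20* both HS libraries were below both NHS libraries, with log2 fold changes of -0.2 and -0.1, and neither passed the test.

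The middle holds the subunit with the largest difference between conditions. *MED7* encodes one side of a hinge between parts of the middle, which in yeast it forms with MED21. Its mRNA stood at 17.1 and 16.6 FPKM in HS cells, against 22.6 and 25.8 FPKM in NHS cells. The HS libraries lay together and well below both NHS libraries. They averaged 16.9 ± 0.364 FPKM in HS cells and 24.2 ± 2.26 FPKM in NHS cells (SD, n = 2 each), a ratio of 0.697. The estimate of -0.49 on the log2(FPKM + 1) scale had a standard error of 0.11 and a 95% interval of -0.79 to -0.19. Its p was 0.0093 in limma's moderated test, and its adjusted p of 0.12 missed the threshold. Ribosomal protein scaling and a term for the replicate number called 451 and 582 of 7815 genes lower, against 122 in the test above. They called 142 and 334 genes higher, against 137. *MED7* passed an adjusted p of 0.05 in limma under both, at 0.039 (log2 fold change -0.72) and 0.046, where calls were more frequent over all genes too. Its adjusted p ran from 0.039 to 0.52 over 14 other settings, and its log2 fold change ran from -0.59 to -0.4 when any 1 library was left out.

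*MED10*, the most abundant tested gene of the middle, separated the replicates and not the conditions. It stood at 49.7 and 87 FPKM in HS cells, against 45 and 80.6 FPKM in NHS cells. Replicate 2 had 1.75 times the level of replicate 1 in HS cells and 1.79 times in NHS cells, so libraries with the same number were close across conditions. It averaged 68.3 ± 26.3 FPKM in HS cells and 62.8 ± 25.2 FPKM in NHS cells (SD, n = 2 each). Its log2 fold change of 0.12 had a standard error of 0.4, a 95% interval of -0.94 to 1.19 and an adjusted p of 0.93 from limma, and it was -0.02 with equal totals and -0.11 with ribosomal protein scaling. At the low end of the middle, *MED4* stood at 12.7 and 9.13 FPKM in HS cells, against 11.5 and 11.3 FPKM in NHS cells. Its NHS libraries lay between the HS ones. Averages of 10.9 ± 2.5 FPKM in HS cells and 11.4 ± 0.16 FPKM in NHS cells (SD, n = 2 each) differed by -0.07 on the log2 scale (SE 0.18, adjusted p = 0.9 from limma).

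The other middle genes include several contact points for regulators. *MED1*, which binds nuclear receptors in mammals, stood at 30.2 and 28.3 FPKM in HS cells, against 29.7 and 25.9 FPKM in NHS cells. *MED19*, which contacts Hox proteins in flies, stood at 41.5 and 36.8 FPKM in HS cells, against 37.8 and 34.7 FPKM in NHS cells. For *MED26*, which recruits elongation factors in mammals and is the only member on chromosome 4, the levels were 24.2 and 28 FPKM in HS cells, against 23.7 and 25.7 FPKM in NHS cells. All of these overlapped between conditions, with log2 fold changes of 0.08, 0.11 and 0.07 that turned negative with equal totals and with ribosomal protein scaling. *MED31*, a small conserved subunit, stood at 55.5 and 66.4 FPKM in HS cells, against 60.3 and 63.7 FPKM in NHS cells, and its log2 fold change was -0.03. It overlaps *slx1* on the same strand in the BDGP6 annotation, and *slx1* stood at 2.23 and 3.42 FPKM in HS cells, against 1.22 and 1.42 FPKM in NHS cells. How the authors' counting split reads between these genes is not known here. With 7 genes tested, the middle had a median log2 fold change of 0.07 that turned negative with equal totals and with ribosomal protein scaling, where all 7 estimates were below 0. Its genes summed to 231 and 272 FPKM in HS cells and to 231 and 268 FPKM in NHS cells.

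The scaffold subunit MED14 spans the core and holds its parts together. Its mRNA stood at 51.3 and 54.6 FPKM in HS cells, against 54.4 and 53.7 FPKM in NHS cells. The conditions overlapped, and the averages of 52.9 ± 2.39 FPKM in HS cells and 54.1 ± 0.516 FPKM in NHS cells (SD, n = 2 each) differed by -0.03 on the log2 scale (SE 0.09, 95% interval -0.28 to 0.22, adjusted p = 0.93 from limma). This interval was among the narrowest of the subunit genes.

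**Figure D3:**
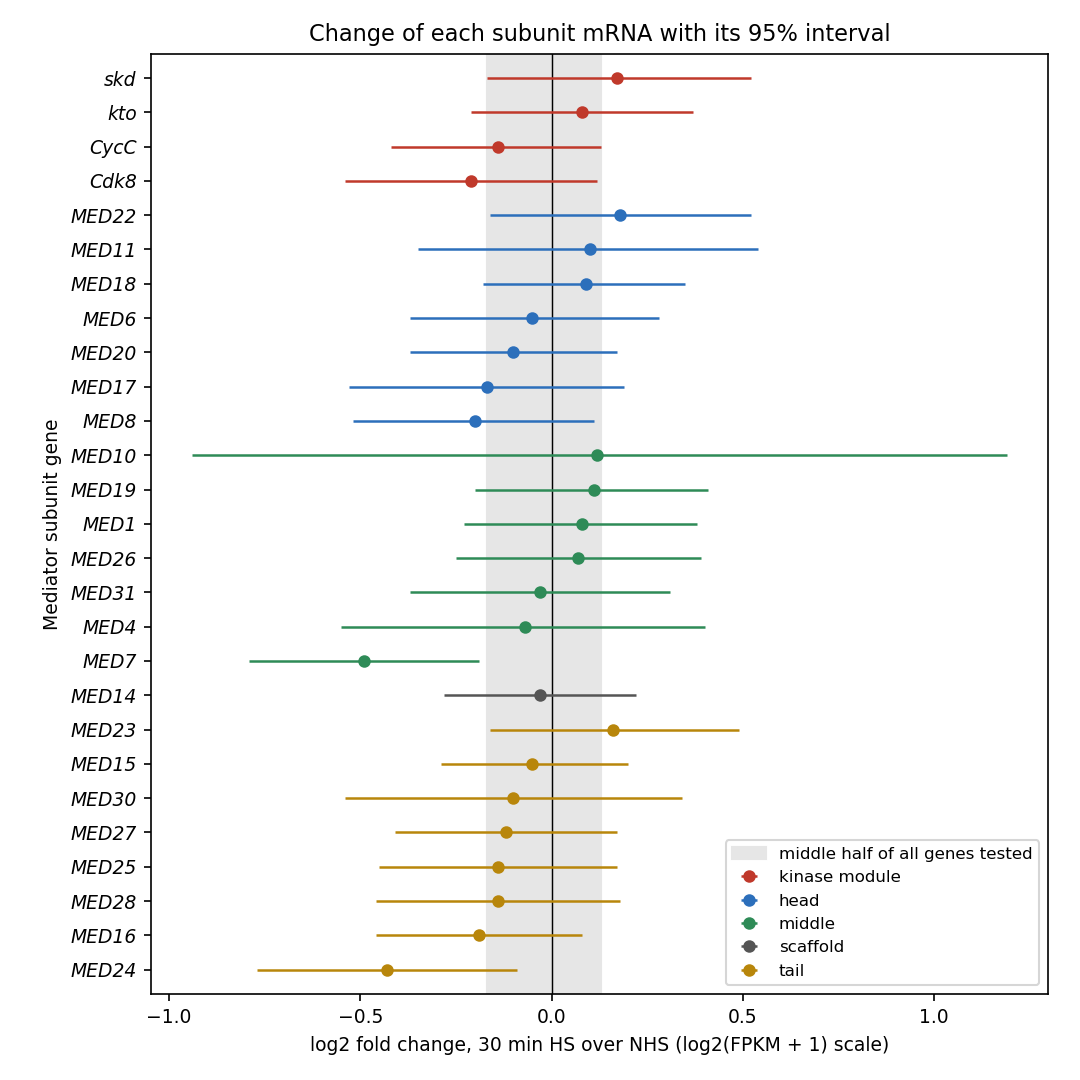
Log2 fold change, 30 min HS over NHS, of the 27 tested Mediator subunit genes on the log2(FPKM + 1) scale, grouped and coloured by module. Points are limma estimates from 2 libraries a condition, lines their 95% intervals, and the grey band the middle 50% of all 7815 genes tested, from -0.17 to 0.13. *MED7* (-0.49) and *MED24* (-0.43) stand apart at the left with intervals that leave out 0, and *MED10* has the widest interval, from -0.94 to 1.19.

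In the tail, where activators bind, 7 of 8 genes had a log2 fold change below 0, with a median of -0.13, against 53.4% of all genes tested. *MED27*, *MED28* and *MED30*, whose published placements differ, are among these 7. The gene for the fly MED29, *ix*, lies outside the symbol rule and is not counted, and its log2 fold change was 0.16. With quantile normalization 5 of the 8 were below 0 (48.5% of all genes), and with ribosomal protein scaling 8 were (83.3%). The lowest was that of *MED24*, a subunit linked in flies to the death of the larval salivary glands. Its mRNA, the least abundant of all subunit genes, stood at 4.82 and 5 FPKM in HS cells, against 7.26 and 6.67 FPKM in NHS cells. The HS libraries lay below both NHS libraries, and replicates were close in both conditions. Its averages were 4.91 ± 0.127 FPKM in HS cells and 6.96 ± 0.419 FPKM in NHS cells (SD, n = 2 each), a ratio of 0.705. On the log2(FPKM + 1) scale the estimate was -0.43, with a standard error of 0.13 and a 95% interval of -0.77 to -0.09, and limma's adjusted p was 0.19. Its adjusted p stayed between 0.06 and 0.58 over 14 other settings, and its log2 fold change between -0.64 and -0.27. In the annotation 12 tested subunit genes, *MED24* among them, overlap a gene on the opposite strand. The libraries were directional and the reads were aligned with a stranded setting, while the sources used here do not give the strand setting of Cuffnorm, which made the FPKM from those alignments.

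*MED16* and *MED23*, neighbours of MED24 in the mammalian tail, have been described in fly cells as coactivators for activators induced by HS and by lipopolysaccharide. They had opposite signs here. *MED16* stood at 10.1 and 10.1 FPKM in HS cells, against 11.8 and 11.6 FPKM in NHS cells, the closest replicates of all subunit genes. *MED23* stood at 7.65 and 7.98 FPKM in HS cells, against 6.55 and 7.21 FPKM in NHS cells. The conditions did not overlap for either gene. On the log2 scale the fold changes were -0.19 for *MED16* (SE 0.1, adjusted p = 0.45 from limma) and 0.16 for *MED23* (SE 0.12, adjusted p = 0.6), and the sign of *MED23* turned with ribosomal protein scaling (-0.05).

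*MED30*, a subunit of animal Mediator with no clear yeast counterpart, was the most abundant subunit mRNA, at 2.59 times the level of the next. It stood at 186 and 144 FPKM in HS cells, against 187 and 163 FPKM in NHS cells, and replicate 1 was the higher in both conditions. Averages of 165 ± 29.6 FPKM in HS cells and 175 ± 17.3 FPKM in NHS cells (SD, n = 2 each) differed by -0.1 on the log2 scale (SE 0.16, 95% interval -0.54 to 0.34, adjusted p = 0.86 from limma). *MED15*, a target of SREBP in several animals, stood at 59.8 and 60.7 FPKM in HS cells, against 63.8 and 60.6 FPKM in NHS cells, and the conditions overlapped. *MED25*, bound by the viral activator VP16 in mammals, stood at 9.5 and 9.15 FPKM in HS cells, against 11 and 9.78 FPKM in NHS cells. *MED27* stood at 15.6 and 13.9 FPKM in HS cells, against 15.9 and 16.3 FPKM in NHS cells. For *MED25* and *MED27* both HS libraries were below both NHS libraries. *MED28* overlapped between conditions, with 44.6 and 38 FPKM in HS cells, against 46.5 and 44.6 FPKM in NHS cells. The estimates on the log2 scale were -0.05 for *MED15*, -0.14 for *MED25* and *MED28* and -0.12 for *MED27*, and none passed the test. *MED30* weighed most in the sum of the tail, which was 338 and 289 FPKM in HS cells, against 350 and 320 FPKM in NHS cells.

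Both HS libraries lay above both NHS libraries for 3 of the 27 subunit genes (*MED18*, *MED22* and *MED23*), or 11.1%, against 20.5% of all genes tested. They lay below for 9 of 27, or 33.3%, against 25.6% of all genes. These 9 were *Cdk8*, *CycC*, *MED7*, *MED8*, *MED16*, *MED20*, *MED24*, *MED25* and *MED27*. Of the 27 log2 fold changes, 10 were above 0 and 17 below. This split depended on the scaling between libraries, since 3 were above 0 with equal totals, 0 with scaling to ribosomal protein mRNAs and 14 with quantile normalization. Under them the all-gene median, -0.02 as deposited, was -0.16, -0.25 and 0.01. Relative to the all-gene median of the same setting, the median of the core was -0.03, -0.04 and -0.01, and that of the kinase module -0.02, -0.02 and 0.02. The summed FPKM of all subunit genes was 914 and 911 in HS cells, against 924 and 939 in NHS cells, while their share of all FPKM was 0.0989% and 0.0983% in HS cells, against 0.111% and 0.112% in NHS cells. The FPKM totals, by which this share is divided, were the higher ones in the HS libraries.

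Differences between replicates were often as large as those between conditions. The signed replicate differences of HS and NHS cells were averaged, so opposite signs cancel and this mean understates the differences of such genes. In size it was larger than the log2 fold change for 14 of the 27 genes (51.9%), against 48.4% of all genes. Replicate 2 minus replicate 1 had the same sign in both conditions for 19 of the 27 (70.4%), against 72.4% of all genes. The replicate difference in HS cells went with that in NHS cells with an r of 0.78 over the 27 genes, 0.57 over the 26 without *MED10*, and 0.22 over all genes tested, as a description across genes with no p. Besides *MED10*, with differences of 0.79 in HS cells and 0.83 in NHS cells, *MED11* had 0.26 in HS cells and 0.32 in NHS cells, and *MED30* had -0.37 in HS cells and -0.2 in NHS cells. Among the haemocyte markers, *Hml*, a gene for a clotting protein, also differed between the replicates of both conditions, with 4.45 and 20.7 FPKM in HS cells, against 5.69 and 22.5 FPKM in NHS cells. *He*, a haemocyte surface marker, went the other way, with 5.36 and 1.21 FPKM in HS cells, against 5.97 and 1.09 FPKM in NHS cells. The part of these markers in the replicate differences of the subunit genes was not tested.

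**Figure D4:**
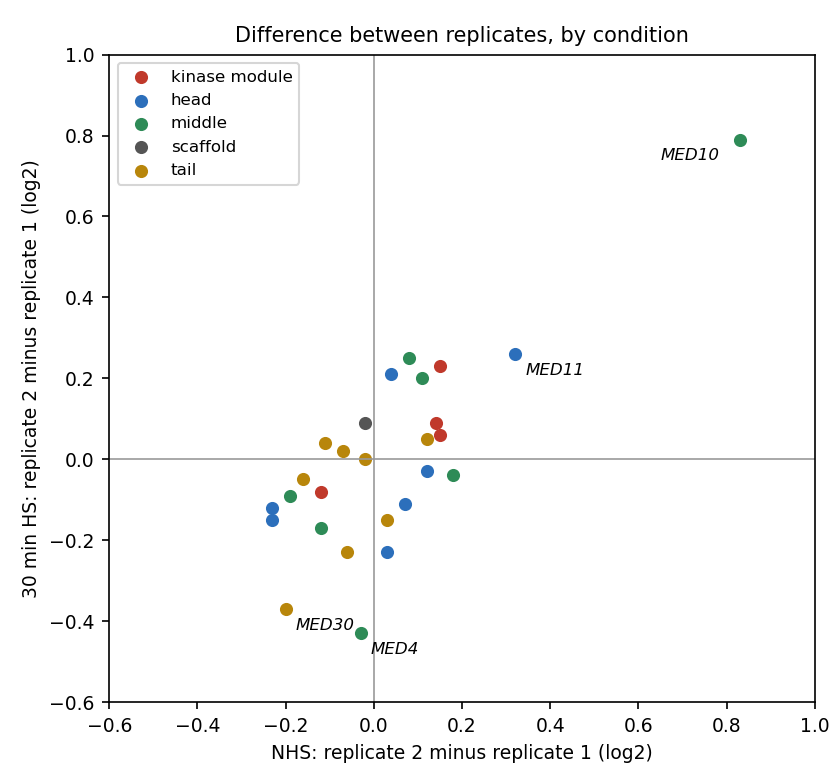
Difference between replicates, replicate 2 minus replicate 1 on the log2(FPKM + 1) scale, for each of the 27 tested subunit genes, with the 30 min HS pair on the vertical axis and the NHS pair on the horizontal axis. Each point is 1 gene, coloured by module. *MED10* lies far from the others at 0.79 in HS cells and 0.83 in NHS cells, and 19 of the 27 points have the same sign on both axes.

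The machinery with which Mediator works is given for comparison. With 3.31% of all genes called, lists of this size would hold few calls or none, and their counts of 0 lie near that share. The list of 12 Pol II subunit genes had 0 called higher and 0 called lower, a median log2 fold change of 0.02 and a range of -0.22 to 0.12. All 14 TFIID subunit genes, which encode the factor that binds core promoters, were tested, with 0 calls, a median of -0.03 and a range of -0.17 to 0.35. Of 17 genes for the general factors TFIIA, TFIIB, TFIIE, TFIIF and TFIIH, 16 were tested, with 0 calls, a median of -0.06 and a range of -0.26 to 0.35. The 4 genes for the other kinases and cyclins that act on elongating Pol II had 0 calls, a median of -0.04 and a range of -0.28 to 0.05. Without adjustment, 0 genes of these 4 lists had a p under 0.05 in limma, beside 7.42% of all genes in the higher and 10.5% in the lower direction. The gene *ix*, whose product is the fly MED29 and acts with Doublesex in sexual differentiation, lies outside the symbol rule. It stood at 19.1 and 25.1 FPKM in HS cells, against 19.4 and 19.5 FPKM in NHS cells, and the conditions overlapped, differing by 0.16 on the log2 scale (SE 0.16, adjusted p = 0.7 from limma).

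**Figure D5:**
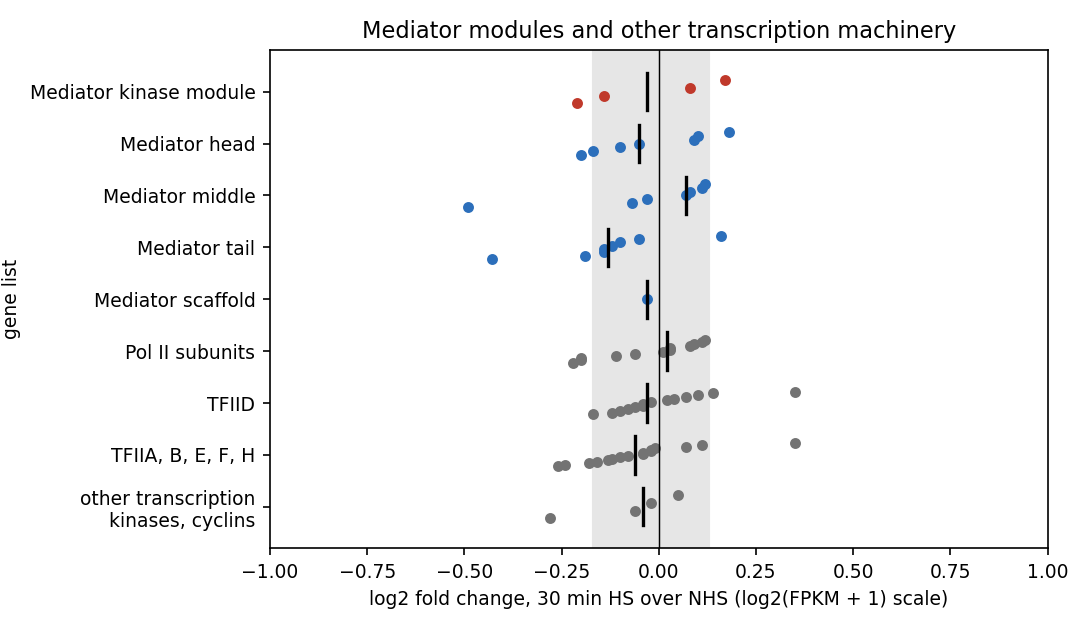
Log2 fold change, 30 min HS over NHS, on the log2(FPKM + 1) scale for each tested gene of the Mediator modules and of 4 lists of other transcription machinery. Points are genes (red, kinase module; blue, Mediator core; grey, other machinery), black bars the median of each list and the grey band the middle 50% of all 7815 genes tested. The medians lie between -0.13 for the Mediator tail and 0.07 for the Mediator middle.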

How the data were processed

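RNA-seq was analysed for 2 HS and 2 NHS libraries of S2 cells. GEO holds 1 entry a condition, so replicate numbers came from the column names, and 0 columns were left unmapped. The authors clipped adapters with fastx_clipper, aligned reads to dm3 with TopHat2 (stranded setting) and deposited Cuffnorm FPKM per gene and library. Versions and the Cuffnorm scaling are not given in the sources used here. FPKM are relative, so a loss shared by all mRNAs does not show in them, and the authors' own DESeq2 test on read counts was not repeated.

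Symbols, chromosome arm, strand, exons and transcript length came from the Ensembl BDGP6 annotation (14924 of 15602 identifiers matched). Because the authors used another build, no coordinates or sequences are printed. Of the 28 members, 12 lie on 3L, 8 on 3R, 3 on 2R, 2 on 2L, 2 on X and 1 on 4. The 7815 genes averaging 1 FPKM or more were tested as log2(FPKM + 1) in R 4.3.3 by limma 3.58.1 (a linear fit per gene with condition as its sole term, trended eBayes, Benjamini-Hochberg over all genes), which understates changes of low values. Calls were made at an adjusted p under 0.05, and at 0.001, the FDR of the study, as an alternative. Relative depth was the most frequent ratio to NHS replicate 1 among genes under 0.15 FPKM. It equals depth in reads only if the FPKM were scaled by total reads. Described in full are the kinase module, the 3 largest changes, and the most and least abundant gene of each core module. The remaining members and *ix* are given for completeness, and *MED16*, *MED22* and *MED23* were singled out after their values were seen. Members, lists and rules were chosen with earlier results of these data known. Alternatives were other pseudocounts (0.1, 5), filters (none, 5 FPKM), scalings (equal totals, 88 ribosomal protein genes, quantile), variance settings, a term for the replicate number and leaving out each library. Tables and plots used scipy 1.17.1, pandas 2.3.3, matplotlib 3.10.9 and numpy 2.4.6 in Python 3.11.15.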

Additional observations from a re-analysis of the deposited data

How the results depend on the processing

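The 0 calls among the 27 Mediator genes held under every setting except 2, each of which called 1 gene lower, *MED7*: scaling to the ribosomal protein mRNAs (-0.72) and the replicate block (-0.49). The count of all genes called higher (137) was 280 with no filter, 60 with a filter of 5 FPKM, 334 with the replicate block and 10 at an adjusted p under 0.001, and 16 to 36 without any 1 library. The count called lower (122) was 252 with equal totals, 451 with ribosomal protein scaling, 190 with robust variance moderation, 582 with the block and 0 at 0.001, and 6 to 34 without any 1 library. Of these calls, 52.9% were higher, against 70.7% with no filter, 40.3% with the filter of 5 FPKM, 34.4% with equal totals, 23.9% with ribosomal protein scaling, 64.9% without a variance trend, 36.5% with the block, 61.5% without NHS replicate 1, 46.9% without NHS replicate 2, 84.6% without HS replicate 1 and 85.7% without HS replicate 2.

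The median log2 fold change of the kinase module (-0.03) was -0.17 with equal totals, -0.26 with ribosomal protein scaling, 0.03 with quantile normalization and -0.04 to 0.01 without any 1 library. For the core (-0.05) it was -0.19, -0.28 and 0.00 under the same scalings and -0.06 to -0.03 without any 1 library. The difference between these medians (0.01) ran from 0.00 to 0.07 without any 1 library, the highest being without NHS replicate 2.

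Signs turned for 34 of the values of single genes, none of which was called. With equal totals the log2 fold change was -0.07 for *MED1*, -0.02 for *MED10*, -0.05 for *MED11*, -0.06 for *MED18*, -0.04 for *MED19*, -0.07 for *MED26* and -0.06 for *kto*. With ribosomal protein scaling it was -0.16 for *MED1*, -0.11 for *MED10*, -0.14 for *MED11*, -0.15 for *MED18*, -0.13 for *MED19*, -0.05 for *MED22* and *MED23*, -0.16 for *MED26*, -0.15 for *kto* and -0.06 for *skd*. Quantile normalization gave 0.07 for *MED14* and *MED31*, 0.05 for *MED15* and 0.00 for *MED30*. Without any 1 library the values ran from -0.29 to 0.54 for *MED10*, from -0.06 to 0.26 for *MED11*, from -0.02 to 0.17 for *MED1*, from -0.08 to 0.02 for *MED14*, from -0.03 to 0.17 for *MED26*, from -0.28 to 0.09 for *MED30*, from -0.16 to 0.10 for *MED31*, from -0.29 to 0.14 for *MED4* and from -0.15 to 0.06 for *MED6*. The cause of these moves was not tested.

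With 2 replicate pairs and no source that ties a number to a shared batch, the libraries share only a number. The correlation of their deviations from the condition means was 0.22 across all genes tested and 0.78 across the 27 members. With 2 replicates a condition it is no second check beside the r of the replicate differences. That r was 0.57 over the 26 genes without *MED10*. A term for the number moved calls as given above. Leaving out a library left 1 library in its condition, which is then assumed to vary like the other. The paper refers to a supplemental summary of RNA-seq read numbers, which was not among the sources used here. Depth in reads was therefore not available, and 2 libraries a condition limit what the test can show.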
